A study of Rattus norvegicus with 46 samples.

Results

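The organic anion and cation transporters move drugs, toxins and metabolic waste from the blood through the cells of the proximal tubule into the urine. Of 8 transporters named for this work (Slc22a2, Slc22a5, Slc22a6, Slc22a7, Slc22a8, Slc22a12, Slc47a1 and Slco1a6), 7 had a probe set whose only gene symbol in the platform annotation was that of the transporter, out of 17245 symbols with such a probe set on the array. Each of the 7 had exactly 1 probe set, so no choice between probe sets arose, and all 7 were among the probe sets with the higher SD, which alone were tested. Slc22a5 had none: its only probe set is also assigned to Slc22a4, and its values are given below only as shared by both genes.

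RNA from the kidneys of 46 male Wister rats of 200 to 300 g was hybridised to expression arrays (Rat Gene 1.1 ST, Affymetrix), each animal on an array of its own. The naïve animals (n = 5) were neither operated on nor treated, and were anesthetised only for sampling. All other animals had the left renal artery clamped for 45 min, the right kidney removed at reperfusion, and the left kidney taken 3, 24 or 120 h later, after an intraperitoneal injection before surgery of saline (Vehicle; n = 5, 4 and 5 at 3, 24 and 120 h), dexamethasone at 3 mg/kg (Dex, a glucocorticoid; n = 4, 5 and 4) or valproic acid at 150 mg/kg (VPA, an inhibitor of histone deacetylases; n = 5, 5 and 4). There was no sham group, so each comparison with naïve holds the surgery, the loss of the right kidney and the analgesia as well as the ischemia, and the animals of the 3 h groups were under anesthesia until the end. Signal is the value the authors deposited, and a change is the difference of mean log2(signal + 16) with its SE from limma fitted to all 10 groups. A change was called, and is written as a fall or a rise, at 2-fold or more with a p under 0.05 after Benjamini-Hochberg adjustment over 14607 probe sets.

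Uptake of organic anions on the blood side of the proximal tubule cell runs through Slc22a6 (Oat1) and Slc22a8 (Oat3), which exchange their substrates for dicarboxylates, and uptake of organic cations runs through Slc22a2 (Oct2). Cations leave into the urine through Slc47a1 (Mate1), an antiporter for protons. Slc22a12 (Urat1) is a urate transporter of the luminal membrane, Slc22a7 (Oat2) carries small organic anions, and Slco1a6 belongs to the organic anion transporting polypeptides. In the rat genome Slc22a6 and Slc22a8 are next to each other on chromosome 1, Slc22a2 is next to Slc22a3 on the same chromosome, Slc47a1 is next to Slc47a2, and Slco1a6 lies between Slco1a3 and Slco1a5. Probes for 1 member of such a family can take up RNA of a near relative.

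The sequences before the start of Slc22a8 and Slc22a2 are shown because both genes fell at 24 h and Slc22a2, but not Slc22a8, was called lower at 120 h, and because the nuclear receptor Hnf4a, measured on the same arrays, is known in mouse and human to drive anion transporter genes in the proximal tubule. Each line holds the 250 bases before the start in the RefSeq promoter table of GRCr8, read 5′ to 3′ in the direction of the gene, in lower case since neither holds the HNF4 motif searched for. Slc22a8 is at chr1:214927034-214927283 on the plus strand, and Slc22a2 at chr1:50711020-50711269 on the minus strand.
Slc22a8: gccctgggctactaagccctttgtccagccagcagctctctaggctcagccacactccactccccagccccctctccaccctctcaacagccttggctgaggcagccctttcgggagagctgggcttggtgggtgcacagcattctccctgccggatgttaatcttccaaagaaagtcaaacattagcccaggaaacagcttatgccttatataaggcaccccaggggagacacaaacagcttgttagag
Slc22a2: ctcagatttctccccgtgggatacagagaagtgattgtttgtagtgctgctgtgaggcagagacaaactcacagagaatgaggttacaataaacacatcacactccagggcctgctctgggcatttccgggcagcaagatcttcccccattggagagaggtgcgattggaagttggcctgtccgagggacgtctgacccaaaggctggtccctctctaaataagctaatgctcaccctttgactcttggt

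Of the 8 transporters 6 were in that table (all but Slc22a6 and Slc47a1). In windows of 250 bases before to 50 after the start, searched on both strands, the HNF4 motif CAAAGTCCA was in 0 of the 6 and in 103 (0.375%) of all 27457 promoters, which says only that these letters are not in these windows.

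Slc22a2 had signals of 1779, 3106, 2667, 2539 and 2377 in naïve replicates 1 to 5, Slc22a8 of 1789, 2459, 1908, 1887 and 2138, and Slc22a6 of 1580, 2056, 1985, 2045 and 2002. Replicate 1 was the lowest naïve animal in all 7. Slc22a7 was between 65.0 and 199.3 in naïve animals, where the lower quartiles of the arrays ran from 19.9 to 37.6 and their medians from 64.7 to 87.5, so its changes are damped by the offset of 16.

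**Figure D1:**
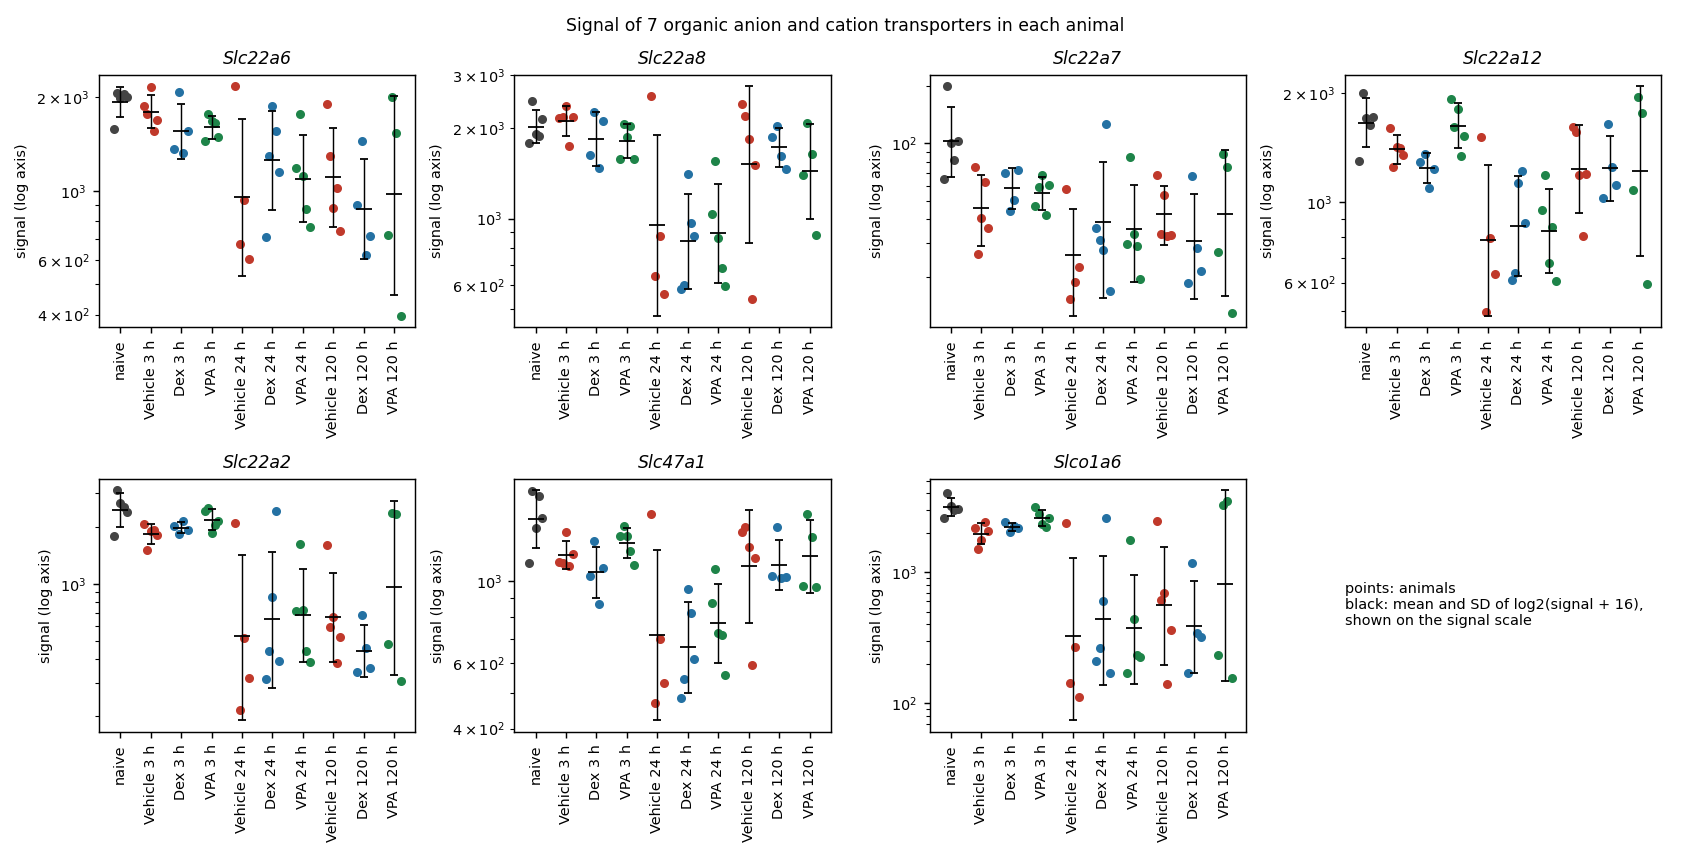
Signal of the 7 transporters in each animal, on a log axis, by group along the x axis. Points are animals, and black bars give the mean and SD of log2(signal + 16) returned to the signal scale. In all 7 panels the lowest animals are at 24 or 120 h, and single animals in several of these groups lie within the naïve range.

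At 24 h the transporters were lower than in naïve kidney under all 3 treatments. In Vehicle animals 6 of the 7 fell (Slco1a6, Slc22a2, Slc22a7, Slc22a8, Slc22a12 and Slc47a1), in Dex animals 5 (Slco1a6, Slc22a2, Slc22a8, Slc47a1 and Slc22a7) and in VPA animals 4 (Slco1a6, Slc22a2, Slc22a7 and Slc22a8), and none rose. Over all probe sets tested, 4.23% fell and 4.79% rose in Vehicle animals, 2.59% fell and 2.59% rose in Dex animals, and 3.55% fell and 5.92% rose in VPA animals. The median change of the 7 was -1.08 with Vehicle, -1.13 with Dex and -1.17 with VPA, where the median of all probe sets tested was 0.13, 0.17 and 0.11. Leaving out Vehicle replicate 2 or Vehicle replicate 4 brought the Vehicle count from 6 to 3, with Slco1a6, Slc22a2 and Slc22a7 still called, and leaving out VPA replicate 2 brought the VPA count to 6 with Slc22a12 and Slc47a1.

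Slco1a6 had the largest change of the 7. Its signals were 2593, 3997, 3183, 2975 and 3041 in naïve replicates 1 to 5, and 2355, 143.0, 270.0 and 112.6 in Vehicle replicates 1 to 4 at 24 h. All 4 Vehicle animals were below the lowest naïve animal, and replicate 1 was far above the other 3. The change was -3.19 ± 0.80 (9.16-fold lower, limma adjusted p = 0.0027). In Dex animals at 24 h the signals were 209.1, 262.8, 605.6, 2608 and 171.3, with replicate 4 inside the naïve range, and the change was -2.79 ± 0.75 (adjusted p = 0.0074). VPA animals at 24 h had 169.3, 1764, 443.5, 235.6 and 224.0, all below the naïve animals, with a change of -3.01 ± 0.75 (adjusted p = 0.0021).

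Slc22a2, the cation uptake carrier, had the next largest change in all 3 groups at 24 h. It was at 2099, 217.5, 515.1 and 318.6 in Vehicle replicates 1 to 4, so that replicate 1 was within the naïve range of 1779 to 3106 and the other 3 below it. The change was -2.18 ± 0.52 (4.54-fold lower, adjusted p = 0.0018). Dex animals had 314.6, 442.8, 849.3, 2404 and 393.9, with replicate 4 again within the naïve range (-1.89 ± 0.49, adjusted p = 0.0057). VPA animals had 718.3, 1611, 731.1, 443.7 and 386.2, all below the naïve animals (-1.82 ± 0.49, adjusted p = 0.0037). Slc47a1, through which cations leave the cell, was at 1515, 469.1, 698.8 and 529.5 in Vehicle animals at 24 h against 1116, 1754, 1392, 1691 and 1480 in naïve animals. It fell in Vehicle (-1.02 ± 0.24, adjusted p = 0.0016) and Dex animals (-1.13 ± 0.22, adjusted p = 9.2e-04), and in VPA animals its change of -0.92 ± 0.22 passed the adjusted p of 0.05 (0.0017) but not 2-fold, unless VPA replicate 2 (-1.04) or naïve replicate 1 (-1.01) was left out. Without Vehicle replicate 2 or 4, or without naïve replicate 2 or 4, its Vehicle change was between -0.82 and -0.97, short of 2-fold.

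Slc22a8, the anion uptake carrier, had signals of 2563, 646.1, 873.4 and 560.7 in Vehicle replicates 1 to 4 at 24 h, and replicate 1 was above every naïve animal. Its changes were -1.08 ± 0.33 in Vehicle (adjusted p = 0.012), -1.25 ± 0.31 in Dex (adjusted p = 0.0043) and -1.17 ± 0.31 in VPA animals (adjusted p = 0.0036). All 5 Dex animals (582.6, 600.8, 1409, 965.6 and 874.8) and all 5 VPA animals (1034, 1554, 862.2, 684.6 and 594.7) were below the naïve range. The Vehicle change of Slc22a8 lost its call without Vehicle replicate 2 (-0.89, adjusted p = 0.073) or replicate 4 (-0.83, adjusted p = 0.087).

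Slc22a6, the neighbour of Slc22a8, was at 2170, 676.2, 933.6 and 601.9 in the same 4 Vehicle animals. Its change of -0.999 ± 0.33 (adjusted p = 0.020) was just short of 2-fold, and it was called without Vehicle replicate 1 (-1.39, adjusted p = 9.6e-04) or without naïve replicate 1 (-1.07, adjusted p = 0.020), and under 5 of 10 other settings. In Dex animals at 24 h the signals were 711.8, 1294, 1865, 1556 and 1152 and the change of -0.61 ± 0.31 did not pass (adjusted p = 0.17). VPA animals had 1182, 1768, 1116, 870.9 and 765.8, with a change of -0.81 ± 0.31 that passed the adjusted p (0.043) but not 2-fold. Replicate 1 of the Vehicle animals was above the naïve range of Slc22a6, and some Dex and VPA animals were within it.

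Slc22a12, the urate transporter, was at 1511, 498.7, 793.8 and 632.0 in Vehicle animals at 24 h and between 1300 and 1999 in naïve animals. It fell in Vehicle animals (-1.06 ± 0.26, adjusted p = 0.0024), and with Dex (-0.93 ± 0.25, adjusted p = 0.0065) or VPA (-0.98 ± 0.25, adjusted p = 0.0022) it was lower by less than 2-fold, with every animal of both groups below the naïve range. In Dex animals it passed 2-fold (changes of -1.02 to -1.06) without naïve replicate 1 or Dex replicate 3 or 4, and in VPA animals (-1.03 to -1.11) without naïve replicate 1 or VPA replicate 1 or 2. Its Vehicle change was -0.85 without Vehicle replicate 2, -0.96 without Vehicle replicate 4 and -0.99 without naïve replicate 2, each short of 2-fold. Slc22a7, with signals of 15.3 to 125.4 over the animals of 24 h, fell in all 3 groups at 24 h, with changes of -1.5 ± 0.35 in Vehicle (adjusted p = 0.0017), -1.11 ± 0.33 in Dex (adjusted p = 0.015) and -1.20 ± 0.33 in VPA animals (adjusted p = 0.0048). Vehicle animals had 57.5, 15.3, 18.8 and 22.4, all below the lowest naïve signal of 65.0, whereas Dex replicate 4 (125.4) and VPA replicate 2 (84.4) were above it. Without naïve replicate 2, the highest naïve animal, the change of Slc22a7 was -0.90 in Dex (adjusted p = 0.062) and -0.99 in VPA animals, and without Dex replicate 5 it was -0.93 in Dex animals (adjusted p = 0.066).

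The probe set that Slc22a5 (Octn2, the carnitine carrier) shares with Slc22a4 had signals of 1088, 1442, 1286, 1285 and 1288 in naïve animals and 1259, 413.0, 526.8 and 370.8 in Vehicle animals at 24 h. Its change was -1.15 ± 0.29 there (adjusted p = 0.0030), -0.84 ± 0.27 in Dex (adjusted p = 0.025) and -0.82 ± 0.27 in VPA animals (adjusted p = 0.019), and the last 2 were short of 2-fold. At 120 h it was -0.44 ± 0.27 with Vehicle, -0.63 ± 0.29 with Dex and -0.50 ± 0.29 with VPA, with adjusted p between 0.10 and 0.29. Which of the genes these values belong to cannot be told from the array.

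**Figure D2:**
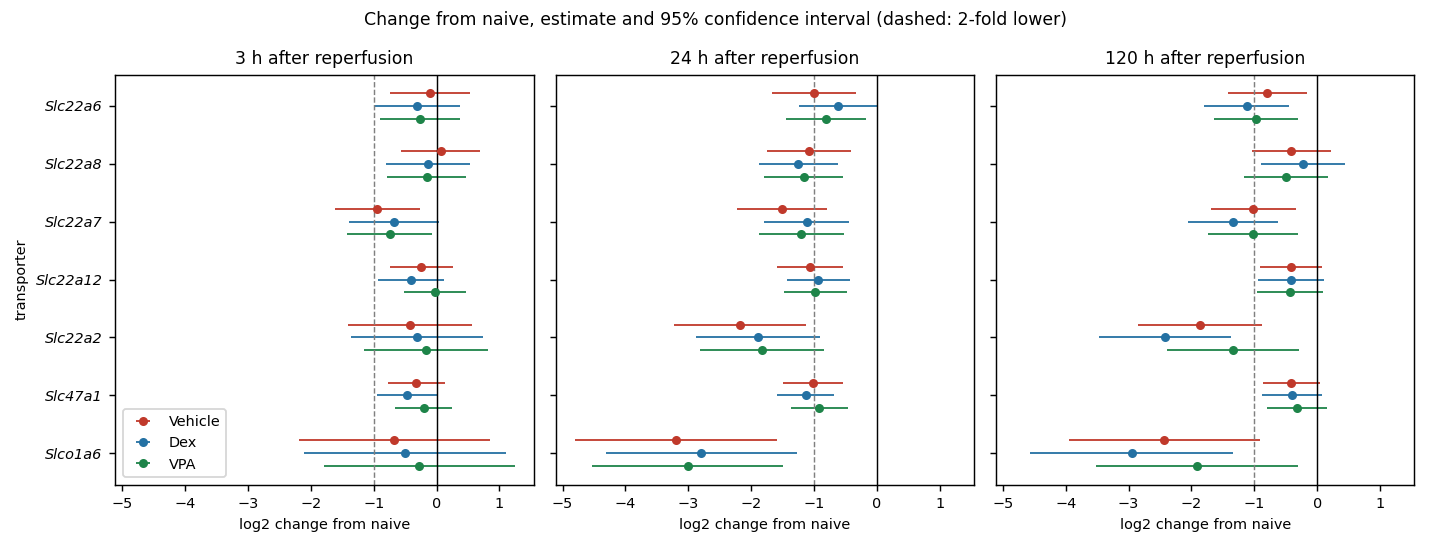
Change of each transporter from naïve (x axis, log2) at 3, 24 and 120 h in Vehicle (red), Dex (blue) and VPA animals (green). Points are limma estimates, bars 95% confidence intervals, and the dashed line marks 2-fold lower. At 24 h the 7 estimates run from -3.19 to -0.999 in Vehicle animals, and at 120 h Slco1a6 and Slc22a2 have the lowest estimates in each treatment.

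At 3 h no transporter was called in any group, by limma or by analysis of variance without moderation. At an unadjusted p under 0.05, 1 was lower in Vehicle animals, 0 in Dex and 1 in VPA animals, which was Slc22a7 both times. The share of all probe sets at this looser threshold was not counted. Calls lower over all probe sets were 0.459% with Vehicle, 0.657% with Dex and 0.459% with VPA. In Vehicle animals Slc22a7 had signals of 75.5, 26.3, 40.4, 62.5 and 36.2 and a change of -0.94 ± 0.33 (adjusted p = 0.042), short of 2-fold. It passed 2-fold (changes of -1.01 to -1.09) without naïve replicate 1 or 4 or without Vehicle replicate 1 or 4. Slco1a6 at 3 h was at 2180, 1500, 1776, 2398 and 2061 in Vehicle animals and 2405, 2017, 2248 and 2165 in Dex animals, all below the lowest naïve signal of 2593, with changes of -0.67 ± 0.75 and -0.50 ± 0.80 that did not pass (adjusted p = 0.58 and 0.76). The SE of Slco1a6 is large because the fit shares 1 spread over the 10 groups, and its SD within a group ran from 0.11 in Dex animals at 3 h to 2.34 in VPA animals at 120 h. Over 10 other settings of the fit, the limma adjusted p of Slco1a6 at 3 h ran from 0.014 to 0.65 in Vehicle and from 0.013 to 0.80 in Dex animals. For Slc47a1 and Slc22a12 in Dex animals it ran from 0.0094 to 0.24 and from 0.034 to 0.39. None of these changes reached 2-fold under those settings. Slc22a8 was at 2159, 2169, 2367, 1747 and 2178 in Vehicle animals at 3 h, with a change of 0.06 ± 0.31 (95% confidence interval -0.57 to 0.69).

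Between 3 and 24 h the same 3 transporters, Slco1a6, Slc22a2 and Slc22a8, fell in each treatment. The changes of Slco1a6 were -2.52 ± 0.80 with Vehicle, -2.29 ± 0.80 with Dex and -2.73 ± 0.75 with VPA, with adjusted p of 0.025, 0.033 and 0.0049. For Slc22a2 they were -1.76 ± 0.52, -1.58 ± 0.52 and -1.65 ± 0.49 (adjusted p = 0.017, 0.024 and 0.0086), and for Slc22a8 -1.14 ± 0.33, -1.11 ± 0.33 and -1.01 ± 0.31 (adjusted p = 0.016, 0.012 and 0.012). Over all probe sets 1.95% fell with Vehicle, 3.44% with Dex and 2.38% with VPA between these times. All 3 calls in Vehicle animals were lost without replicate 2, 3 or 4 at 24 h, and 6 transporters were called without replicate 1. Of the 3 calls in Dex animals, 0 were left without replicate 1 or without replicate 2 at 24 h, and 1 without replicate 5 at 24 h or replicate 3 at 3 h, and that of Slco1a6 was lost without any 1 of the 4 Dex animals at 3 h. In VPA animals the change of Slc22a8 was between -0.999 and -0.865, short of 2-fold, without replicate 2, 3 or 4 at 3 h or replicate 3, 4 or 5 at 24 h.

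At 120 h only some of the transporters were called. Slco1a6 and Slc22a2 fell against naïve in Vehicle and Dex animals, as did Slc22a7, and Slc22a6 fell in Dex animals, whereas no change of Slc22a8, Slc22a12 or Slc47a1 was called in any group. That makes 3 of 7 with Vehicle, 4 with Dex and 0 with VPA, where 1.51%, 3.73% and 0.192% of all probe sets fell and 1.83%, 4.76% and 0.493% rose, and none of the 7 rose. At an unadjusted p under 0.05, 4 of the 7 were lower in VPA animals. The shares above are of calls, and the share of all probe sets at this looser threshold was not counted. Analysis of variance without moderation called 0 of the 7 there. The Vehicle count of 3 became 1, with Slc22a2 alone left, without any 1 of naïve replicates 2 to 5 or Vehicle replicates 2 to 5. The VPA count of 0 became 4 (Slco1a6, Slc22a2, Slc22a6 and Slc22a7) without replicate 2 or without replicate 3.

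Slc22a2 at 120 h was at 1603, 592.3, 670.2, 382.1 and 525.6 in Vehicle replicates 1 to 5 and at 341.8, 686.4, 458.5 and 359.0 in Dex replicates 1 to 4. All 9 animals were below the naïve range of 1779 to 3106. The change was -1.86 ± 0.49 in Vehicle (adjusted p = 0.015) and -2.43 ± 0.52 in Dex animals (5.37-fold lower, adjusted p = 0.0013). VPA animals fell into 2 pairs, with 2351 and 2329 in replicates 2 and 3 and 479.3 and 308.8 in replicates 1 and 4, and the change of -1.35 ± 0.52 did not pass (adjusted p = 0.12).

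Slco1a6 showed the same division. Vehicle animals at 120 h had 2447, 613.8, 696.7, 141.2 and 365.0 (-2.44 ± 0.75, adjusted p = 0.030) and Dex animals 170.8, 1167, 345.9 and 322.9 (-2.95 ± 0.80, adjusted p = 0.0069), all below the naïve animals. In VPA animals replicates 2 and 3 were at 3230 and 3503, inside the naïve range, and replicates 1 and 4 at 231.9 and 155.1, so that the mean change of -1.91 ± 0.80 (adjusted p = 0.15) describes no animal of the group.

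Slc22a8 at 120 h was at 2409, 2192, 1843, 539.7 and 1510 in Vehicle animals, 1868, 2036, 1610 and 1458 with Dex, and 1392, 2083, 1644 and 885.2 with VPA. In each treatment some animals were within the naïve range of 1789 to 2459. Its changes from naïve were -0.41 ± 0.31, -0.22 ± 0.33 and -0.49 ± 0.33 (adjusted p = 0.37, 0.65 and 0.37), and the 95% intervals (-1.04 to 0.22, -0.89 to 0.44 and -1.16 to 0.18) hold 0. Those of Vehicle and VPA also hold a level 2-fold lower than naïve, and that of Dex ends just short of it. Slc22a6 in Dex animals was at 900.7, 1447, 623.3 and 717.8, all below the naïve animals, and fell by 1.12 ± 0.33 on the log2 scale (adjusted p = 0.012), a call that was lost without Dex replicate 3 (-0.96, adjusted p = 0.060). Slc22a6 had changes of -0.79 ± 0.31 in Vehicle (adjusted p = 0.079) and -0.97 ± 0.33 in VPA animals (adjusted p = 0.094). Slc47a1 was at 1354, 1395, 1233, 593.1 and 1152 with Vehicle at 120 h, 1032, 1396, 1021 and 1023 with Dex, and 969.1, 1513, 1319 and 962.9 with VPA, so that 1 or more animals of each group were above the lowest naïve signal of 1116. Slc47a1 and Slc22a12 had changes between -0.44 and -0.33 in the 3 groups, with adjusted p from 0.20 to 0.42.

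**Figure D3:**
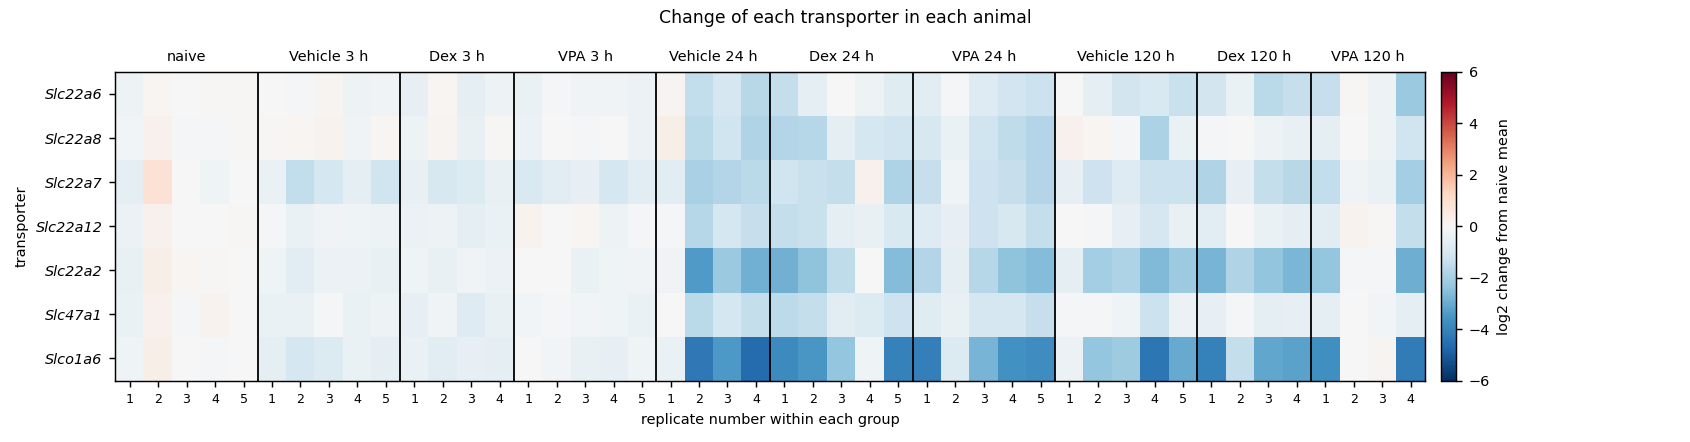
Change from the naïve mean (log2 colour scale) of the 7 transporters (y axis) in each of the 46 animals (x axis, by group and replicate number). Vehicle replicate 1 at 24 and 120 h, Dex replicate 4 and VPA replicate 2 at 24 h, and VPA replicates 2 and 3 at 120 h are paler than the other animals of their groups.

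From 24 to 120 h 1 transporter rose in Dex animals, Slc22a8, by 1.03 ± 0.33 (adjusted p = 0.031), with all 4 animals at 120 h above all 5 at 24 h. Slc47a1 was higher by 0.73 ± 0.24 in the same comparison (adjusted p = 0.033), short of 2-fold and also with no overlap. Over all probe sets 2.14% rose in Dex animals between these times. The call of Slc22a8 was lost without Dex replicate 1 or 2 at 24 h or without replicate 1, 2 or 3 at 120 h (changes of 0.90 to 1.06, adjusted p = 0.066 to 0.082). In Vehicle and VPA animals none of the 7 was called by limma or by analysis of variance without moderation, where 0.0616% and 0.0822% of all probe sets rose. At an unadjusted p under 0.05, 2 were higher in Vehicle and 3 in VPA animals, and the share of all probe sets at this looser threshold was not counted. Slc22a8 was higher by 0.66 ± 0.33 in Vehicle and 0.67 ± 0.33 in VPA animals (adjusted p = 0.30 for both), and in Vehicle animals it was called without replicate 1 at 24 h (1.13) or without replicate 4 at 120 h (1.03). Whether the change from 24 to 120 h differed between Dex and Vehicle animals was tested in the same fit. For Slc22a8 the difference was 0.36 ± 0.47 (adjusted p = 0.67), for Slc22a6 -0.72 ± 0.47 (adjusted p = 0.45), and no transporter passed in this or the 3 other tests of that kind. Over all probe sets tested, 0 were called for Dex and 0 for VPA from 24 to 120 h. From 3 to 24 h, 3 were called for Dex and 1 for VPA. With so few calls over the array, these tests do not set the transporters apart from other genes.

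Set against each other in the same animal, the changes of Slc22a8 and Slc22a2 were apart in all Vehicle and Dex animals at 120 h. Each change is taken from the naïve mean of its own gene. The naïve differences therefore centre on 0 by construction, and only their spread is a result. The change of Slc22a8 less the change of Slc22a2 lay between -0.20 and 0.28 in the 5 naïve animals, between 0.56 and 1.78 in Vehicle, -1.03 and 1.40 in Dex and 0.22 and 0.88 in VPA animals at 24 h, and between 0.76 and 2.14 in Vehicle and between 1.82 and 2.67 in Dex animals at 120 h. VPA animals at 120 h ran from -0.22 to 1.78. At 3 h this difference ran from 0.14 to 0.80 with Vehicle, -0.25 to 0.58 with Dex and -0.33 to 0.28 with VPA. Slc22a8 less Slco1a6 ran from -0.11 to 0.12 in naïve animals and at 24 h from 0.75 to 2.79 with Vehicle, -0.79 to 2.87 with Dex and 0.44 to 3.13 with VPA. At 120 h it ran from 0.60 to 2.63, 1.42 to 3.96 and -0.46 to 3.13, so that the lowest VPA animal was below the naïve range. At 3 h it ran from 0.17 to 1.15 with Vehicle, where every animal was above the naïve range. With Dex it ran from 0.02 to 0.79 and with VPA from -0.35 to 0.51 at 3 h. Slc22a8 less its neighbour Slc22a6 changed sign with time in Dex animals, from -1.16 to -0.35 in all 5 at 24 h to 0.42 to 1.28 in all 4 at 120 h, and in VPA animals it was between -0.44 and -0.26 in all 5 at 24 h and between -0.02 and 1.06 at 120 h. Vehicle animals ran from -0.17 to 0.17 at 24 h and from -0.97 to 0.99 at 120 h, with replicate 4 the lowest. At 3 h Slc22a8 less Slc22a6 ran from 0.07 to 0.30 with Vehicle, 0.05 to 0.37 with Dex and 0.02 to 0.23 with VPA. The distance from Slc22a2 at 120 h was not particular to Slc22a8. Slc47a1 less Slc22a2 ran from 0.49 to 1.95 with Vehicle, 1.74 to 2.28 with Dex and -0.08 to 2.33 with VPA at 120 h. Slc22a12 less Slc22a2 ran from 0.57 to 1.94, 1.80 to 2.15 and 0.16 to 1.71. In naïve animals these 2 differences lay between -0.20 and 0.15. All these pairs were chosen after their values were seen, and the differences were not tested.

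**Figure D4:**
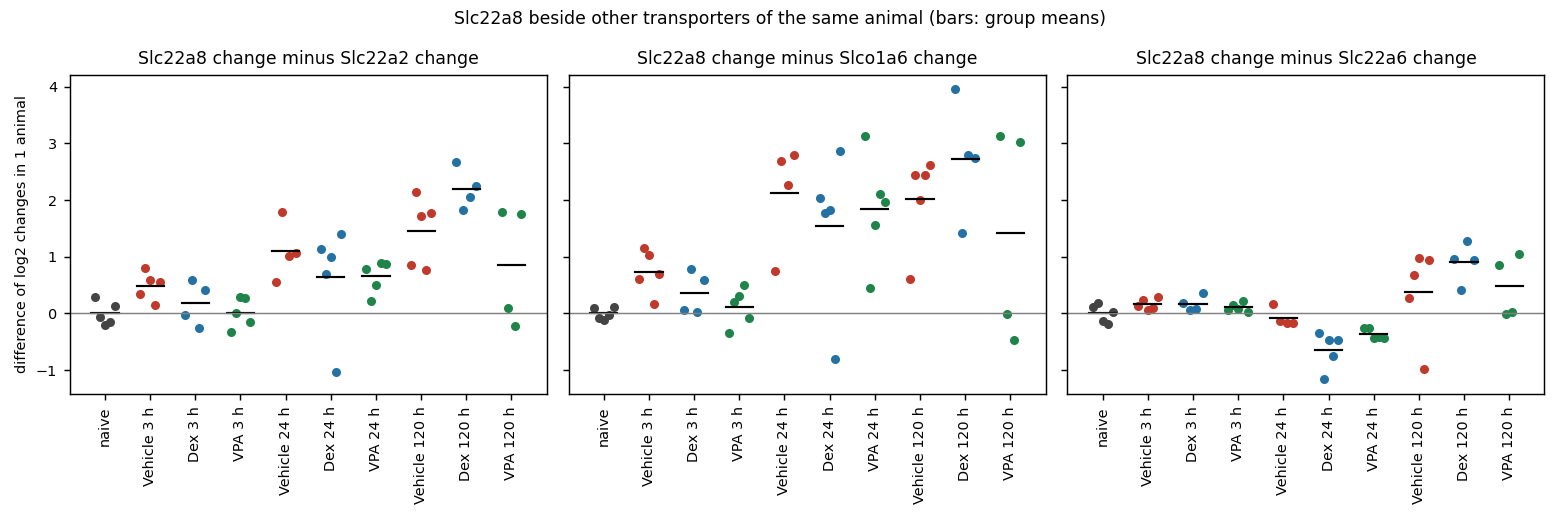
Difference between the log2 change of Slc22a8 and that of Slc22a2, Slco1a6 or Slc22a6 in the same animal (y axis) by group (x axis). Points are animals and bars group means. In Dex animals the third panel runs from -1.16 to -0.35 at 24 h and from 0.42 to 1.28 at 120 h.

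Ordered by mean log2 level, the naïve and 3 h groups took the first 4 of 10 places for every transporter but Slc47a1, and most neighbours were closer than the larger of their SDs. Dex at 120 h took places from 5 (Slc22a8, Slc22a12 and Slc47a1) to 10 (Slc22a2 and Slc22a6). Slco1a6 was highest in naïve kidney (11.62 ± 0.23, SD, n = 5), followed by VPA (11.34 ± 0.20), Dex (11.12 ± 0.11) and Vehicle (10.95 ± 0.26) at 3 h, and lowest in Vehicle animals at 24 h (8.42 ± 1.92). Of these steps naïve to VPA and VPA to Dex were larger than the SDs. Slc22a2 had the same first 4 groups in the same order, from 11.27 ± 0.29 to 10.85 ± 0.17, and was lowest in Dex animals at 120 h (8.84 ± 0.44), with no neighbours apart by more than their SD. Slc22a6 was also lowest in Dex animals at 120 h (9.80 ± 0.52), again with no neighbours apart. Slc22a8 was highest in Vehicle animals at 3 h (11.06 ± 0.16) and lowest in Dex animals at 24 h (9.74 ± 0.52), with no neighbours apart. Slc47a1 and Slc22a12, like Slc22a8, had all 3 groups of 24 h in the last 3 places, and for Slc47a1 the step before them, from Dex at 3 h (10.07 ± 0.23) to VPA at 24 h (9.62 ± 0.35), was larger than the SDs. So were the step of Slc22a7 from naïve (6.89 ± 0.53) to Dex at 3 h (6.22 ± 0.27) and those of Slc22a12 from VPA (10.68 ± 0.20) to Vehicle (10.47 ± 0.13) and on to Dex (10.30 ± 0.13) at 3 h.

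No transporter was called between Dex or VPA and Vehicle at the same time. Of the 7, limma called 0 in each of the 6 comparisons, 0 had an unadjusted p under 0.05, and analysis of variance without moderation called 0. Calls over all probe sets, at 2-fold and the adjusted p, were 0.171% for Dex and 0.0548% for VPA at 3 h. They were 0.116% for Dex and 0% for VPA at 24 h, and 0% for both at 120 h. The differences from Vehicle at 24 h ran from -0.18 to 0.40 with Dex and from -0.09 to 0.36 with VPA, and at 120 h from -0.57 to 0.19 and from -0.18 to 0.52. The intervals were wide. For Slco1a6 the difference between Dex and Vehicle at 24 h was 0.40 with a 95% interval of -1.21 to 2.01, for Slc22a2 0.29 (-0.76 to 1.34), for Slc22a8 -0.18 (-0.85 to 0.49) and for Slc47a1 -0.11 (-0.59 to 0.37). VPA less Vehicle at 24 h was 0.19 for Slco1a6 (-1.42 to 1.80) and 0.36 for Slc22a2 (-0.69 to 1.41). For both genes these intervals hold a level 2-fold higher than Vehicle, and for Slco1a6 they also hold a level 2-fold lower. The comparisons of Dex and of VPA with Vehicle share the Vehicle animals, and all 9 comparisons with naïve share the 5 naïve animals.

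Animals of 1 group differed in how far all 7 transporters had moved together. In Vehicle animals at 24 h the mean change over the 7 was -0.13 in replicate 1 and -2.29, -1.68 and -2.20 in replicates 2 to 4, and at 120 h it was -0.20 in replicate 1 and between -1.90 and -0.89 in the other 4. Replicate 4 of the Dex animals at 24 h had -0.38 against -2.01 to -1.0 in the others, and replicate 2 of the VPA animals at 24 h -0.44 against -1.99 to -1.43. At 120 h VPA replicates 2 and 3 had 0.02 and -0.14, and replicates 1 and 4 -1.51 and -2.09, and Dex replicate 2 had -0.60 against -1.57 to -1.39. Havcr1, the gene of the injury marker KIM-1, was lower in each of the animals with the smaller changes than in the rest of its group, and its part in the changes was not tested. It was at 507.7 in Vehicle replicate 1 at 24 h against 3446 to 4772 in the other 3, at 17.8 in Vehicle replicate 1 at 120 h against 3350 to 4332, at 755.9 in Dex replicate 4 at 24 h against 3768 to 4384, and at 95.7 and 72.5 in VPA replicates 2 and 3 at 120 h against 3946 and 4919. In VPA replicate 2 at 24 h it was still 2809 against 4785 to 5269, and in Dex replicate 2 at 120 h 2531 against 4228 to 4869, where naïve animals had 25.5 to 72.0.

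Markers of the proximal tubule moved with the transporters as well. Of 16 listed, 13 were measured, none was at 0 in any animal, and their summed signal was 36583 to 43447 in naïve animals. Lrp2 (megalin), which defines the proximal tubule, was between 2574 and 3101 there. The sum was 12099 to 39507 with Vehicle, 12477 to 35505 with Dex and 14540 to 34906 with VPA at 24 h, and 19660 to 36076, 23763 to 31128 and 17183 to 40831 at 120 h. At 24 h 7 of the 13 fell with Vehicle, 5 with Dex and 4 with VPA, and at 120 h 1, 1 and 0. Over all probe sets 4.23%, 2.59% and 3.55% fell at 24 h, and 1.51%, 3.73% and 0.192% at 120 h. The part of these markers in the changes of the transporters was not tested. In whole kidney, fewer proximal tubule cells and less transporter RNA per cell cannot be told apart. Of 7 tested markers of the loop and distal tubule, 3 fell with Vehicle, 1 with Dex and 4 with VPA at 24 h, and 1, 3 and 0 at 120 h.

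Markers of some other cell types rose in some of the same comparisons. Over all probe sets 4.79%, 2.59% and 5.92% rose with Vehicle, Dex and VPA at 24 h, and 1.83%, 4.76% and 0.493% at 120 h. Of 11 macrophage markers, 3 rose with Vehicle, 1 with Dex and 2 with VPA at 24 h, and 3, 8 and 2 at 120 h. Their summed signal was 1498 to 1810 in naïve animals, 1683 to 2670, 1524 to 2583 and 2054 to 3539 at 24 h, and 1572 to 5187, 3451 to 5414 and 1548 to 9428 at 120 h. Of 8 fibroblast markers 0 rose in any group at 24 h, and 1 with Vehicle, 3 with Dex and 3 with VPA at 120 h. Of 6 neutrophil markers 3 rose with Vehicle, 0 with Dex and 2 with VPA at 24 h, and 0, 1 and 1 at 120 h. Of 9 collecting duct markers none rose, and 2, 0 and 1 fell at 24 h and 0, 1 and 0 at 120 h. Of 3 tested podocyte markers none was called at either time. The summed signal of 6 endothelium markers was 3824 to 4642 in naïve animals and 3424 to 5040, 4352 to 5607 and 3941 to 4612 at 24 h. For 3 red blood cell markers it was 426 to 2032, and 2669 to 3952, 1061 to 3438 and 1103 to 2950 at 24 h. None of these markers was at 0 in any animal, and the part of these cell types in the changes of the transporters was not tested.

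Across the 46 arrays the transporters were alike to different degrees. Slc22a2 and Slco1a6 had a correlation of 0.97, Slc22a8 and Slc47a1 0.93, and Slc22a12 and Slc47a1 0.92, whereas Slc22a7 and Slc22a8 had 0.55. Among 8917 other genes tested, those most like Slco1a6 were Hnmt (r = 0.99), Rgn (0.98) and Slc7a13 (0.98), and those most like Slc22a2 were Slco4c1 (0.97), Rgn (0.97) and Tmem236 (0.97). Slc22a8 was most like Slc34a1 (0.94), the phosphate carrier of the proximal tubule, and Slc47a1 most like Enpp6 (0.96). For Slc22a6 the nearest gene was Folh1 (0.96), for Slc22a12 Nfs1 (0.94) and for Slc22a7 Foxp2 (0.89). The mean of the 7 was most like Dpys (0.98), an enzyme of pyrimidine breakdown. These correlations are descriptions over arrays of 10 groups that share the time course, and carry no test.

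Some other transporters of the same families fell with them at 24 h. Of 46 other transporters listed, 34 had a probe set of their own and 22 of these were tested. Of these 22, 8 fell with Vehicle, 5 with Dex and 7 with VPA at 24 h, and 2, 6 and 0 at 120 h, and none rose in any group. Over all probe sets tested, 4.23%, 2.59% and 3.55% fell at 24 h, and 1.51%, 3.73% and 0.192% at 120 h. The median change over the 34 measured was -0.41, -0.11 and -0.40 at 24 h, where that of all probe sets tested was 0.13, 0.17 and 0.11. The lists differed. The medians were -0.69, -0.74 and -0.62 in the SLC22 family and -1.04, -0.44 and -0.88 for the 2 dicarboxylate carriers. They were -0.07, -0.02 and -0.09 in the SLCO family and -0.03, 0.06 and -0.001 for efflux and luminal exit. The last 2 lists had 12 and 10 genes measured and 6 tested in each, so their medians include untested genes. Among these, Slco6b1, Slco5a1, Slco1c1, Slco6d1, Slco6c1 and Slc47a2 had low mean log2 levels of 4.67 to 5.44. The rest had 7.13 or more. The part of low signal in the medians was not tested. At 24 h 2 of 6 tested SLCO genes fell in each treatment. For efflux and luminal exit 1 of 6 fell with Vehicle and 0 with Dex or VPA. Leaving out 1 animal, the Vehicle count over the 22 at 24 h ran from 5 (without Vehicle replicate 4) to 10 and the VPA count from 5 to 7. The Dex count at 24 h was 1 without Dex replicate 1, 2 without replicate 5, 3 without replicate 2 or without any 1 of naïve replicates 3 to 5, and at most 7. At 120 h the Vehicle count was 0 without Vehicle replicate 4 or 5, 1 without Vehicle replicate 2 or naïve replicate 2, and 6 without Vehicle replicate 1. With array weights it was also 6. The Dex count at 120 h was 2 without replicate 1, 3 without replicate 3 or 4 and at most 7, and the VPA count was 4 without replicate 2 or 3. Among the SLC22 family 4 of 8 tested fell in Vehicle animals at 24 h. They were Slc22a24 (-3.23 ± 0.72, adjusted p = 0.0012), Slc22a22 (-2.88 ± 0.72, adjusted p = 0.0026), Slc22a25 (-1.91 ± 0.54, adjusted p = 0.0067) and Slc22a21 (-1.28 ± 0.25, adjusted p = 4.4e-04), the last of which is the carnitine carrier next to Slc22a5. Slc22a18 (-0.85 ± 0.23, adjusted p = 0.0043) was short of 2-fold, and Slc22a23 (-0.41 ± 0.20, adjusted p = 0.12) did not pass.

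In the SLCO family Slco4c1, a carrier of the blood side of the tubule, fell by 2.87 ± 0.67 on the log2 scale in Vehicle animals at 24 h (adjusted p = 0.0016), and Slco1a4 by 1.60 ± 0.50 (adjusted p = 0.013). At 120 h Slco4c1 was still lower in Vehicle (-2.20 ± 0.63, adjusted p = 0.022) and Dex animals (-2.52 ± 0.67, adjusted p = 0.0062). Slco3a1 had a change of -0.04 ± 0.17 (adjusted p = 0.92). The only transporter called at 3 h was Slco2b1, which fell with VPA (-1.45 ± 0.24, adjusted p = 5.4e-05), Dex (-1.11 ± 0.26, adjusted p = 0.0014) and Vehicle (-1.06 ± 0.24, adjusted p = 0.0015). It was named after its values were seen, and its call was lost in Vehicle animals without naïve replicate 3 or Vehicle replicate 2 or 4, and in Dex animals without Dex replicate 1.

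Among genes listed for efflux and luminal exit, 6 were tested (Abcb1a, Abcc3, Abcc5, Abcc6, Abcg2 and Slc17a3). Only Abcg2, an efflux pump, fell in Vehicle animals at 24 h (-1.16 ± 0.25, adjusted p = 9.6e-04), where 4.23% of all probe sets fell. Slc17a3 had -0.41 ± 0.21 (adjusted p = 0.14). Slc13a2, which supplies the cell with dicarboxylates, fell at 24 h with Vehicle (-1.47 ± 0.46, adjusted p = 0.013) and with VPA (-1.24 ± 0.43, adjusted p = 0.023), had -0.26 ± 0.43 in Dex animals (adjusted p = 0.69), and fell at 120 h in Dex animals (-1.31 ± 0.46, adjusted p = 0.030). Slc13a3 had -0.61 ± 0.21 in Vehicle animals at 24 h (adjusted p = 0.023), short of 2-fold. Abcc4 and Slco2a1 were removed by the filter on SD and not tested.

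Of 6 tested regulators and scaffold proteins of transporter genes, 5 fell with Vehicle, 2 with Dex and 3 with VPA at 24 h, where 4.23%, 2.59% and 3.55% of all probe sets fell, and 0, 1 and 0 at 120 h. Hnf4a, a nuclear receptor of proximal tubule genes, fell with Vehicle (-1.44 ± 0.27, adjusted p = 2.9e-04), VPA (-1.15 ± 0.25, adjusted p = 6.4e-04) and Dex (-1.02 ± 0.25, adjusted p = 0.0038) and had changes of -0.61 to -0.46 at 120 h that did not pass (adjusted p = 0.079 to 0.29). Pdzk1, a scaffold of luminal transporters, had -1.17 ± 0.32, -1.12 ± 0.30 and -1.13 ± 0.30 at 24 h (adjusted p = 0.0051, 0.0071 and 0.0035). Nr1h4 (-1.31 ± 0.28, adjusted p = 9.1e-04) and Ppara (-1.15 ± 0.30, adjusted p = 0.0036) fell in Vehicle animals, and Slc9a3r1, another scaffold, had -0.71 ± 0.16, short of 2-fold.

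**Figure D5:**
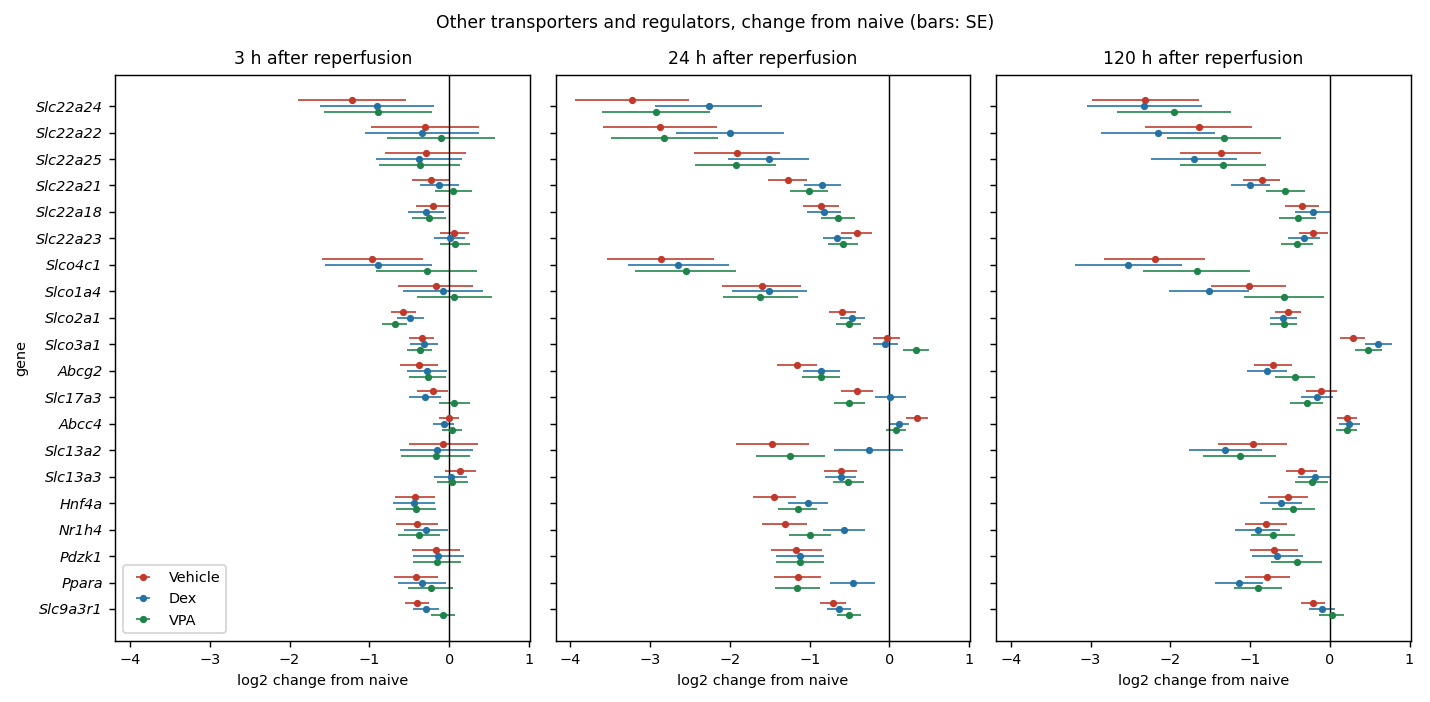
Change from naïve (x axis, log2) of other transporters, regulators and scaffolds (y axis) in Vehicle (red), Dex (blue) and VPA animals (green) at 3, 24 and 120 h, with bars of 1 SE. At 24 h Slc22a24, Slc22a22 and Slco4c1 have the lowest Vehicle estimates, between -3.23 and -2.87.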

How the data were processed

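The deposited values are intensity values per probe set on a linear scale, which the authors obtained by iterPLIER summarisation (Affymetrix Expression Console 1.1, rat rn4 library files) and normalised between arrays. The table holds 29214 probe sets for 46 arrays. The methods describe fewer arrays than the 46 given, some of them excluded after scanning, without naming the animals, and all 46 were used. Array plates are not given in the sources used here. The number of arrays limits the precision.

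From these values log2(value + 16) was taken, the offset the methods name. In R 4.3.3 with limma 3.58.1 the 10 groups were fitted together (36 residual and 4.44 prior degrees of freedom), with 21 contrasts: 9 against naïve, 6 of Dex or VPA against Vehicle at the same time, and 6 between times within a treatment. The 50% of probe sets with the lower SD were removed, as in the methods, leaving 14607, and the p-values of each contrast were adjusted over these. limma took the place of the methods' analysis of variance, which is an alternative. Of the probe sets 18644 have 1 symbol in the platform annotation, 962 have several and 9608 have none. Only those of 1 symbol were used, apart from the probe set of Slc22a5 and Slc22a4. Promoter sequences, gene order and current names are those of RefSeq GRCr8, and no coordinates were carried between builds.

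The members and the lists of other transporters, regulators and markers were chosen with earlier results of these data known. From each list of other genes up to 4 with the largest called change in Vehicle animals at 24 h and up to 2 not called were named. Correlations of likeness are Pearson's over 46 arrays. Alternatives were quantile normalization, no variance filter, a pseudocount of 1, removal of probe sets below the 25th percentile of mean signal, analysis of variance without moderation, a fit of the 2 compared groups alone, no fold threshold, array weights, a block for replicate number, a gene's probe sets averaged, and each array left out in turn. The fit was tested on simulated data.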

Additional observations from a re-analysis of the deposited data

Results flagged for a closer look

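In 3 of 70 sets of 4 or 5 animals, 1 animal stood far from the others of its group, by the gap to the nearest animal as a share of the group's range on the log2 scale. Chance gives about 1 such set in 20. Slc22a6 was lowest in naïve replicate 1, at a signal of 1580 against 1985 to 2056 in the other 4 (share 0.867). Slc47a1 was lowest in Vehicle replicate 4 at 120 h, at 593.1 against 1152 to 1395 (share 0.775), the animal with the lowest mean change over the 7 transporters in its group. Slc47a1 was highest in Dex replicate 2 at 120 h, at 1396 against 1021 to 1032 (share 0.968), and that animal had the lowest Havcr1 signal of its group, 2531 against 4228 to 4869.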

How the results depend on the processing

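No called change of a transporter changed sign under any alternative run. Of 2842 recomputed changes 73 had another sign than the reported value, all of them not called, in 28 of 147 pairs of transporter and comparison, of which 1 was against naïve (Slc22a12 with VPA at 3 h, -0.03 reported and up to 0.04). Against Vehicle at 120 h the Dex difference of Slc22a8 was 0.19 and ran down to -0.18 without 1 animal. Of 210 recomputed counts of transporters called, other than those leaving out an animal, 200 stayed within 1.5 times the reported count and 10 moved. Without a fold threshold the count lower than naïve was 1 in Vehicle animals at 3 h and 7 in VPA animals at 24 h, and the count from 3 to 24 h was 5 in Vehicle and 5 in VPA animals, and that higher from 24 to 120 h was 2 in Dex animals. With array weights, whose estimation gave a convergence warning, it was 6 in Vehicle animals from 3 to 24 h, and from 24 to 120 h 3 with Vehicle, 0 with Dex and 1 with VPA. With only the 2 groups compared in the fit, the count from 3 to 24 h in Vehicle animals was 0. Leaving out 1 animal, counts lower than naïve ran in Vehicle animals from 0 to 1 at 3 h, 3 to 7 at 24 h and 1 to 3 at 120 h, in Dex animals from 4 to 6 at 24 h and 3 to 4 at 120 h, and in VPA animals from 3 to 6 at 24 h and 0 to 4 at 120 h. Counts lower from 3 to 24 h ran from 0 to 6 with Vehicle, 0 to 3 with Dex and 2 to 4 with VPA, and counts higher from 24 to 120 h from 0 to 1 in Vehicle and in Dex animals. Against Vehicle every alternative gave 0. For the other transporters the count without a fold threshold was 12 with Dex and 13 with VPA at 24 h and 4 with Vehicle at 120 h, which with only the 2 groups compared was 4 and with array weights 6. The cause of these shifts was not tested, except that removing the fold threshold can only add calls. In 0 of 21 comparisons did every pair of same-numbered animals have a correlation over 0.1. Single pairs ran from -0.70 (VPA with Vehicle at 120 h) to 0.49 (Vehicle at 120 h with 24 h). A rule that needs every pair at once does not decide whether some pairs deviated together. With the number as a replicate block the count in Vehicle animals at 24 h was 7, with Slc22a6 at -1.05, and the other counts against naïve were the reported ones. Low signal limits what can be said of Slc22a7. Its change in Vehicle animals at 120 h lost its call with a pseudocount of 1 (-1.26) or with array weights (-0.89). The call was also lost with no variance filter or with analysis of variance without moderation (-1.02 and adjusted p = 0.054 for both). The part of low signal in these losses was not tested.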
